A study of Mus musculus with 8 samples.

Results

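Myosin, the motor of the sarcomere, is built from paired heavy chains, each of which carries a regulatory and an essential light chain. The 7 genes described here encode the cardiac forms of these chains in the mouse. They were taken by symbol from the table of normalized counts, in which they are 7 of 23045 genes. They are the heavy chain genes Myh6 (alpha), Myh7 (beta) and Myh7b, the ventricular light chain genes Myl2 (regulatory) and Myl3 (essential), and the atrial light chain genes Myl7 (regulatory) and Myl4 (essential).

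Hearts of 8 mice were compared by total RNA-seq, 4 libraries labelled WT and 4 labelled Mettl3 KO. Both groups carried Mettl3 lox/lox alleles and had received tamoxifen intraperitoneally on 7 consecutive days at an age of 10 to 16 weeks. The Mettl3 KO mice carried in addition αMHC-MerCreMer, a tamoxifen-activated Cre that is driven by the Myh6 promoter and therefore acts in cardiomyocytes, and the WT mice lacked it, so that effects of the transgene and of the loss of Mettl3 cannot be told apart. METTL3 is the catalytic subunit of the complex that writes N6-methyladenosine (m6A) into RNA, and the comparison asks how the myosin transcripts of the heart differ once this writer is deleted in cardiomyocytes.

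Alpha heavy chain is the fast cardiac motor and dominates the adult mouse heart, beta is the slow motor of the fetal mouse ventricle and of slow skeletal muscle, and a shift from alpha to beta is a textbook sign of a stressed or hypothyroid rodent heart. Light chains mark the chambers: Myl2 belongs to ventricular and Myl7 to atrial muscle, Myl3 is the essential chain of ventricular and slow skeletal muscle, and Myl4 that of atrial and fetal muscle. Myh7b arose as an ancient relative of these heavy chains, and in the mammalian heart it is best known as the host of a microRNA.

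All 3 heavy chain genes host a microRNA of the group called myomiRs, which links the transcripts described here to regulators of muscle genes. The mature sequences are shown because they tie the members together in a way that the symbols do not. Capitals mark the seed, bases 2 to 8. The coordinates and sequences are those of RefSeq on GRCm38.p6.
miR-208a-3p (Myh6, chr14:54949072-54949093, minus strand): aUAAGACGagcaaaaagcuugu
miR-208b-3p (Myh7, chr14:54975710-54975731, minus strand): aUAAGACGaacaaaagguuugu
miR-499-5p (Myh7b, chr2:155622893-155622913, plus strand): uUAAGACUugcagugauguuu
The microRNAs of Myh6 and Myh7 share the seed UAAGACG, and that of Myh7b has the seed UAAGACU. Mature microRNAs were not measured by these libraries. The table holds a row for the gene of miR-208a, with 12, 6, 9 and 10 normalized counts in WT hearts against 8, 18, 7 and 7 in Mettl3 KO hearts, which is too little to describe a difference (limma log2 fold change 0.03, SE 0.33, adjusted p = 0.979).

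The libraries held 2.63e+06 to 3.06e+06 reads after the filters of the authors, as recovered from the deposited values, and values are given as normalized counts. Mettl3 had 105 to 133 in WT hearts against 68 to 78 in Mettl3 KO hearts, and Esr1, whose ligand-binding part belongs to MerCreMer, 13 to 20 and 693 to 851, so that each library matched its label. Among 20313 genes tested with limma, 958 were higher and 649 lower in Mettl3 KO hearts at an adjusted p under 0.05. The libraries differed within the groups in some atrial transcripts. WT replicate 3 had the lowest levels of the atrial genes Sln (0), Mybphl (1), Dkk3 (36), Nppa (175) and Pam (1463) among all libraries. Kcna5 (158) was there the lowest of the WT libraries but not of all libraries. Several other atrial markers did not follow. In this library Kcnj3 (616) was the highest of all libraries and Stard10 (73) the highest of the WT libraries. Gja5 (49), Nr2f2 (272) and Kcnj5 (384) lay there within the range of the other WT libraries. Bmp10, a growth factor of adult atrial muscle, was listed at 0 in all WT libraries and in Mettl3 KO replicate 1, and at 195, 158 and 358 in Mettl3 KO replicates 2, 3 and 4.

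Of the 7 members, Myh7, Myl4 and Myl7 were higher in Mettl3 KO hearts (3 of 7, limma adjusted p under 0.05), and none was lower, although Myh7b had an unadjusted p of 0.0290. Across all genes tested, 7.91% were called in either direction, 4.72% were called higher and 3.19% lower. No member had groups without overlap, whereas 11.5% of all genes tested did. The median log2 fold change of the members was 0.06, beside -0.01 over all genes tested. The abundant ventricular chains Myh6, Myl2 and Myl3 differed by less than the spread between libraries.

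**Figure D1:**
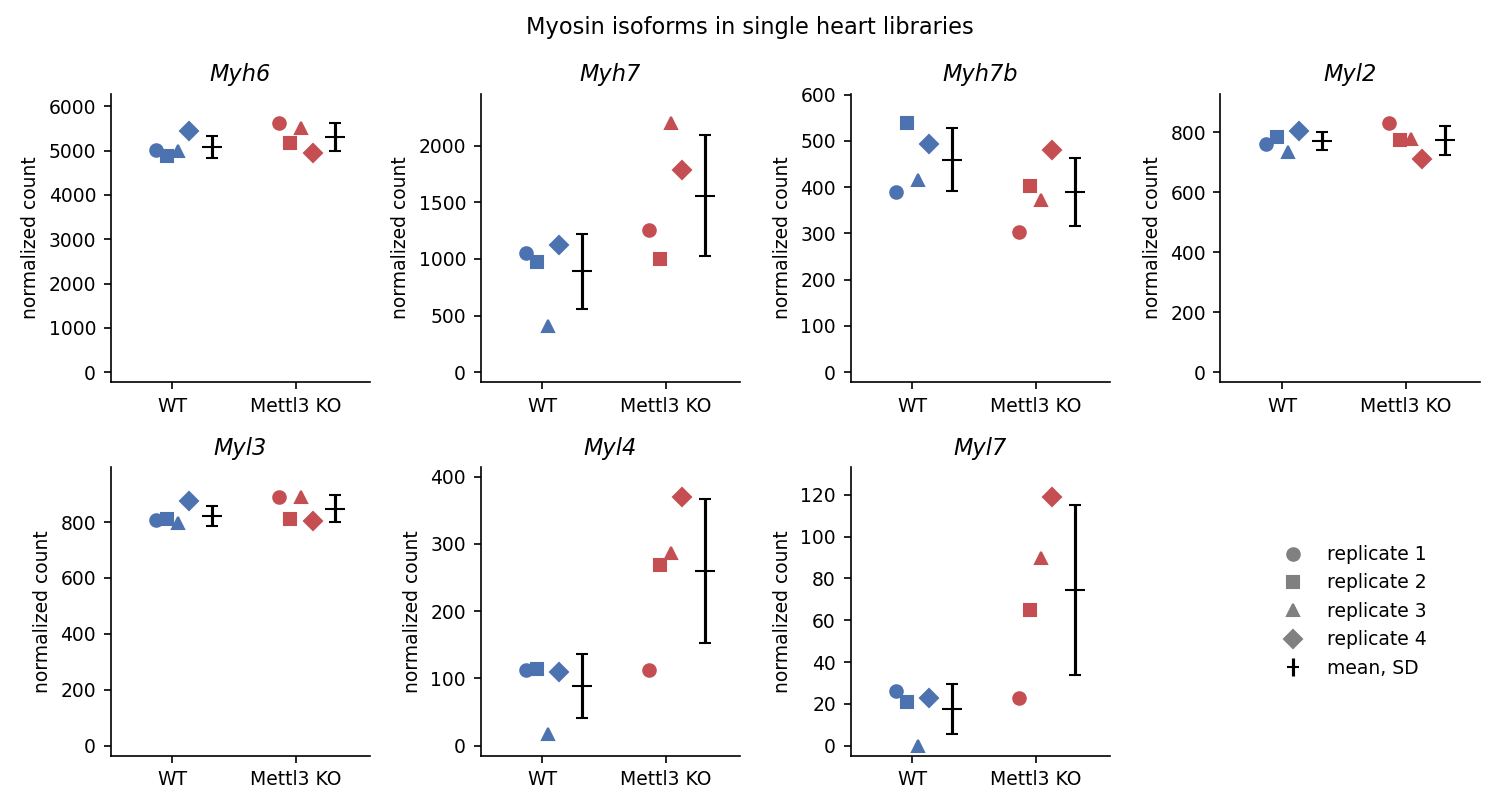
Normalized counts of the 7 myosin genes in each of the 8 heart libraries, WT in blue and Mettl3 KO in red, with 1 symbol per replicate number and the mean and SD of 4 libraries in black. WT replicate 3 is the lowest library for Myh7 (407), Myl4 (17) and Myl7 (0), and Mettl3 KO replicate 1 lies at WT levels for Myl4 (113) and Myl7 (23).

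Myh6 (ENSMUSG00000040752, chr14:55179378-55204384, minus strand, mm39) had 5006, 4882, 4999 and 5435 normalized counts in WT libraries and 5613, 5161, 5500 and 4942 in Mettl3 KO libraries. The ranges overlapped, and the means of 5081 ± 243 and 5304 ± 308 (SD, n = 4) gave a log2 fold change of 0.06 (SE 0.04, 95% interval -0.02 to 0.14, limma adjusted p = 0.417). Its promoter also drives the transgene. Before scaling, its reads were 5216 ± 36 in WT and 5214 ± 108 in Mettl3 KO libraries (SD, n = 4), 0.853 reads per base of its transcript.

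Myh7 (ENSMUSG00000053093, chr14:55208141-55232083, minus strand, mm39) lies next to Myh6 in the same orientation, and 3756 bases separate the annotated genes. It had 1056, 971, 407 and 1127 normalized counts in WT libraries and 1252, 1002, 2196 and 1787 in Mettl3 KO libraries. Mettl3 KO replicates 3 and 4 stood above every WT library, replicate 1 stood slightly above them, replicate 2 fell inside the WT range, and WT replicate 3 was lowest of all. The log2 fold change was 0.85 (SE 0.23, 95% interval 0.37 to 1.32, limma adjusted p = 0.0228), a fold of 1.80 between geometric means. Leaving out WT replicate 3 gave 0.50 (limma adjusted p = 0.0514), leaving out Mettl3 KO replicate 3 gave 0.66 (limma adjusted p = 0.165) and leaving out Mettl3 KO replicate 4 gave 0.76 (limma adjusted p = 0.123). In all, 7 of 19 alternatives ended the call, among them a fit without a trend (limma adjusted p = 0.317) and one with the mean level of 12 atrial markers as covariate (limma adjusted p = 0.848).

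The coding sequences of Myh6 and Myh7 are 91.7% identical over 5802 aligned bases. Of the 6042 windows of 72 bases in the Myh6 transcript, the length of the reads, 972 (16.1%) also occur in that of Myh7, and reads from them had been dropped as multi-mapping for both genes. Neither gene shares such a window with Myh7b.

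The antisense RNAs at this locus give a readout from the other strand. Mhrt, a cardiac long non-coding RNA, overlaps Myh7 on 3780 bases from the plus strand and had 593, 605, 605 and 645 normalized counts in WT hearts against 575, 605, 684 and 663 in Mettl3 KO hearts (limma log2 fold change 0.04, SE 0.05, adjusted p = 0.741). Gm31251, also annotated on the plus strand and within Myh7, had 335, 368, 381 and 372 in WT hearts against 399, 362, 387 and 390 in Mettl3 KO hearts (limma log2 fold change 0.08, adjusted p = 0.494). In WT replicate 3, where Myh7 was lowest, Mhrt and Gm31251 lay within the range of the other libraries. Reads had been counted by strand, and reads over several genes had been left out.

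Myh7b (ENSMUSG00000074652, chr2:155453132-155476227, plus strand, mm39) had 390, 538, 416 and 493 normalized counts in WT libraries and 304, 403, 372 and 481 in Mettl3 KO libraries. Only 2 Mettl3 KO libraries lay below the lowest WT library. The log2 fold change was -0.24 (SE 0.10, 95% interval -0.46 to -0.03), and it did not pass over all genes (limma adjusted p = 0.177). Mettl3 KO replicate 1, the shallowest library, had the lowest value, and without it the log2 fold change was -0.13 (limma adjusted p = 0.473). With the mean log2 level of 12 atrial markers as covariate it was -0.63 (limma adjusted p = 0.00258).

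Myl2 (ENSMUSG00000013936, chr5:122239014-122251535, plus strand, mm39), the regulatory light chain of the ventricle, had 760, 783, 736 and 805 normalized counts in WT libraries and 830, 776, 779 and 711 in Mettl3 KO libraries. The groups overlapped over nearly their whole range, with a log2 fold change of 0.00 (SE 0.05, 95% interval -0.10 to 0.11, limma adjusted p = 0.982). Myl3 (ENSMUSG00000059741, chr9:110570929-110598866, plus strand, mm39), its essential partner, had 809, 811, 795 and 875 in WT libraries and 890, 811, 889 and 802 in Mettl3 KO libraries. The groups again overlapped, and the log2 fold change was 0.04 (SE 0.05, 95% interval -0.06 to 0.14, limma adjusted p = 0.695).

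Myl4 (ENSMUSG00000061086, chr11:104441489-104486579, plus strand, mm39), the atrial essential light chain, had 112, 114, 17 and 110 normalized counts in WT libraries and 113, 269, 287 and 370 in Mettl3 KO libraries. Mettl3 KO replicates 2, 3 and 4 lay above every WT library, Mettl3 KO replicate 1 lay inside the WT range, and WT replicate 3 lay far below all others. The means were 88.3 ± 47.5 and 260 ± 107 (SD, n = 4). The mean log2 values differed by 1.75 (SE 0.41, 95% interval 0.90 to 2.59, limma adjusted p = 0.00860). Without WT replicate 3 the log2 fold change was 1.08, and the call was lost without Mettl3 KO replicate 2, 3 or 4 (limma adjusted p = 0.0560, 0.0686 and 0.0721). In all, 5 of 19 alternatives ended it, the fit without a trend (0.245) and the one with the atrial markers (0.938) included.

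Myl7 (ENSMUSG00000020469, chr11:5846637-5848782, minus strand, mm39), the atrial regulatory light chain, had 26, 21, 0 and 23 normalized counts in WT libraries and 23, 65, 90 and 119 in Mettl3 KO libraries. As for Myl4, Mettl3 KO replicate 4 was highest, then replicates 3 and 2, Mettl3 KO replicate 1 lay inside the WT range, and WT replicate 3 was lowest. Its count of 0 there allows a value of up to 2.88, that of 3 reads. The log2 fold change was 2.56 (SE 0.68, 95% interval 1.14 to 3.98, limma adjusted p = 0.0218) on the log2(value + 1) scale, and 1.41 without WT replicate 3. It did not pass without Mettl3 KO replicate 2, 3 or 4 (limma adjusted p = 0.0890, 0.121 and 0.124). In all, 5 of 19 alternatives ended the call, the fit without a trend (0.297) and the one with the atrial markers (0.919) included.

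Ratios of normalized counts within a library are free of the library's scaling factor, except for the 1 added to each value in the test and for rounding. The Myh7/Myh6 ratio was 21.1%, 19.9%, 8.14% and 20.7% in WT libraries and 22.3%, 19.4%, 39.9% and 36.2% in Mettl3 KO libraries. Mettl3 KO replicates 3 and 4 were well above the WT libraries, replicates 1 and 2 were close to WT replicates 1, 2 and 4, and WT replicate 3 was lowest. The mean log2 ratio was higher by 0.78 in Mettl3 KO hearts, which did not pass the test (two-sided exact permutation p = 0.143, adjusted over 3 ratios p = 0.143). Without WT replicate 3 the difference was 0.45. The smallest p that 70 splits of 8 libraries allow is 0.0286. Of the reads of both genes together, Myh7 made up 14.7% ± 4.78 in WT and 22.4% ± 6.06 in Mettl3 KO hearts (SD, n = 4). In single libraries this share went from 7.53% (95% Wilson interval 6.87% to 8.24%) in WT replicate 3 to 28.5% (27.5% to 29.6%) in Mettl3 KO replicate 3 as the lowest and highest of 8 hearts, and the intervals cover counting error only. In the other 3 WT libraries it was 17.4%, 16.6% and 17.2%.

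The ratios of atrial to ventricular light chains had the same shape in both pairs of chains. Myl7/Myl2 was 3.42%, 2.68%, 0.0% and 2.86% in WT libraries and 2.77%, 8.38%, 11.6% and 16.7% in Mettl3 KO libraries (mean log2 ratio higher by 2.56, two-sided exact permutation p = 0.0857, adjusted p = 0.129). Myl4/Myl3 was 13.8%, 14.1%, 2.14% and 12.6% in WT libraries and 12.7%, 33.2%, 32.3% and 46.1% in Mettl3 KO libraries (mean log2 ratio higher by 1.70, two-sided exact permutation p = 0.0857, adjusted p = 0.129). For either ratio, Mettl3 KO replicates 2, 3 and 4 exceeded every WT library and Mettl3 KO replicate 1 did not, and neither passed. Without WT replicate 3 the differences were 1.43 for Myl7/Myl2 and 1.06 for Myl4/Myl3. Both atrial chains summed and divided by both ventricular chains gave 8.80%, 8.47%, 1.11% and 7.92% in WT libraries and 7.91%, 21.0%, 22.6% and 32.3% in Mettl3 KO libraries.

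**Figure D2:**
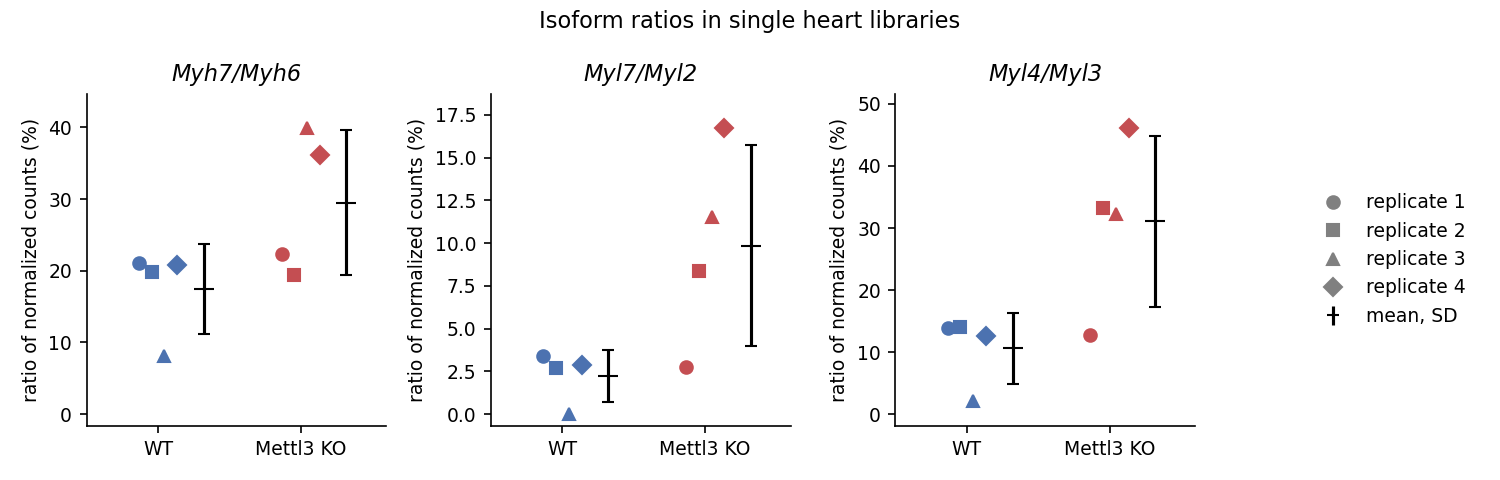
Ratios of normalized counts, in percent, within each of the 8 libraries (WT in blue, Mettl3 KO in red, 1 symbol per replicate number), with the mean and SD of 4 libraries in black. Mettl3 KO replicate 1 lies among the WT libraries for the light chain ratios (2.77% and 12.7%), and WT replicate 3 is lowest in each ratio (8.14%, 0.0% and 2.14%).

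Like Myl4 and Myl7, the atrial transcripts Bmp10, Sln and Mybphl exceeded every WT library in Mettl3 KO replicates 2, 3 and 4 but not in replicate 1. Sln and Mybphl were also lowest in WT replicate 3, whereas Bmp10 was 0 in all WT libraries. These transcripts followed Myh7 less closely, which was within the WT range in Mettl3 KO replicate 2. Other atrial transcripts had a different order. Kcnj3 was highest in WT replicate 3 (616) and Kcnj5 in Mettl3 KO replicate 1 (498), and Gja5 (42 to 57) and Nr2f2 (244 to 285) overlapped between the groups. Of 12 atrial markers other than the light chains, 6 were higher in Mettl3 KO hearts (Bmp10, Sln, Dkk3, Nppa, Pam and Kcnj5) and none was called lower. At an unadjusted p under 0.05 there were 8 of 12, which include Kcna5, a potassium channel gene with a log2 fold change of -0.30 (limma adjusted p = 0.119). Kcnj3 (-0.14) and Nr2f2 (-0.02) also had negative values. Their summed level over the 12 markers was 3227 to 3437 in WT hearts against 3832 to 4726 in Mettl3 KO hearts. The peptide hormone gene Nppa, which stressed ventricles also express, had 282, 243, 175 and 292 in WT hearts against 452, 410, 508 and 481 in Mettl3 KO hearts. Sln, the small regulator of the calcium pump in atria, had 12, 6, 0 and 4 in WT hearts against 10, 34, 29 and 64 in Mettl3 KO hearts. Nppa, Dkk3 (132 against 36 to 84 in WT hearts), Pam (1840 against 1463 to 1539) and Kcnj5 (498 against 341 to 416) were above every WT library also in Mettl3 KO replicate 1, whereas Sln, like Bmp10, Myl4 and Myl7, was at WT level there.

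The mean log2 level of the 12 markers was 6.42, 6.30, 5.78 and 6.30 in WT hearts against 6.35, 7.54, 7.54 and 7.87 in Mettl3 KO hearts. The difference of this index between the genotypes came mostly from Bmp10 (log2 fold change 5.85), Sln (2.67), Mybphl (1.97) and Dkk3 (1.64). The other markers had log2 fold changes from -0.30 (Kcna5) to 0.92 (Nppa), so the index does not weigh the markers evenly. With this index as a covariate in limma, the log2 fold change was 0.16 for Myh7 (adjusted p = 0.848), -0.10 for Myl4 (adjusted p = 0.938) and -0.25 for Myl7 (adjusted p = 0.919). The index differed between the genotypes, so that its share and that of genotype cannot be told apart in 8 libraries. In bulk heart RNA, a larger share of atrial tissue and more RNA of these genes per cell cannot be told apart either.

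**Figure D3:**
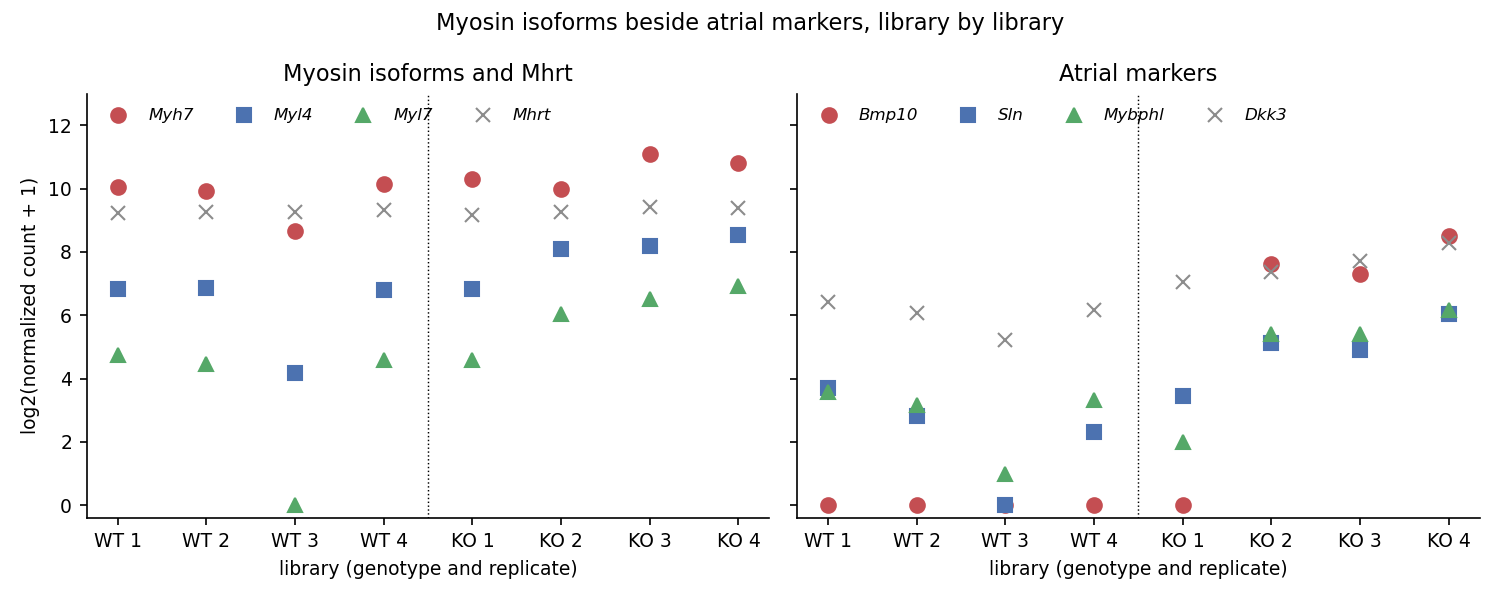
log2(normalized count + 1) of Myh7, Myl4, Myl7 and the antisense RNA Mhrt (left) and of the atrial markers Bmp10, Sln, Mybphl and Dkk3 (right) in each library, with a dotted line between WT and Mettl3 KO (KO) libraries. Myl4 and Myl7 are lowest in WT replicate 3 (17 and 0 normalized counts) and highest in Mettl3 KO replicate 4 (370 and 119), as are Sln (0 and 64), Mybphl (1 and 71) and Dkk3 (36 and 307), whereas Mhrt stays between 575 and 684. The atrial markers shown were chosen from 12. Among those not shown, Kcnj3 is highest in WT replicate 3 (616) and Kcnj5 in Mettl3 KO replicate 1 (498).

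Within the genotypes, the members fell into sets that varied together. As a description over 8 libraries, the deviations of log2 values from the genotype means had a Pearson r of 0.992 for Myl4 with Myl7, of 0.864 for Myh7 with Myl7 and of 0.820 for Myh7 with Myl4. Among 9313 genes with a mean of at least 50, Myl4 was the gene most like Myl7 in this measure, and Btbd3 (0.990), Kat6a (0.984) and Asb5 (0.975) were among the next. For Myh7, the most similar included Zfp131 (0.976), Yipf4 (0.973), Slc35b4 (0.963) and Ipo9 (0.960). These genes were picked as the highest of all compared, and the 8 libraries include WT replicate 3, which was lowest in Myh7, Myl4 and Myl7.

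Among the ventricular chains, r was 0.947 for Myh6 with Myl3, 0.799 for Myh6 with Myl2 and 0.793 for Myl2 with Myl3. These values share the scaling of each library. The reads of Myh6 varied by 1.42% (coefficient of variation over 8 libraries), those of Myl3 by 2.75% and those of Myl2 by 4.05%, while the depth of the libraries varied by 5.53% and the normalized counts of Myh6 by 5.46%. Myh6 was highest in Mettl3 KO replicate 1, which had the fewest reads, and lowest in WT replicate 2, which had the most. The reads of Myh7b, in contrast, varied by 22.0%.

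**Figure D4:**
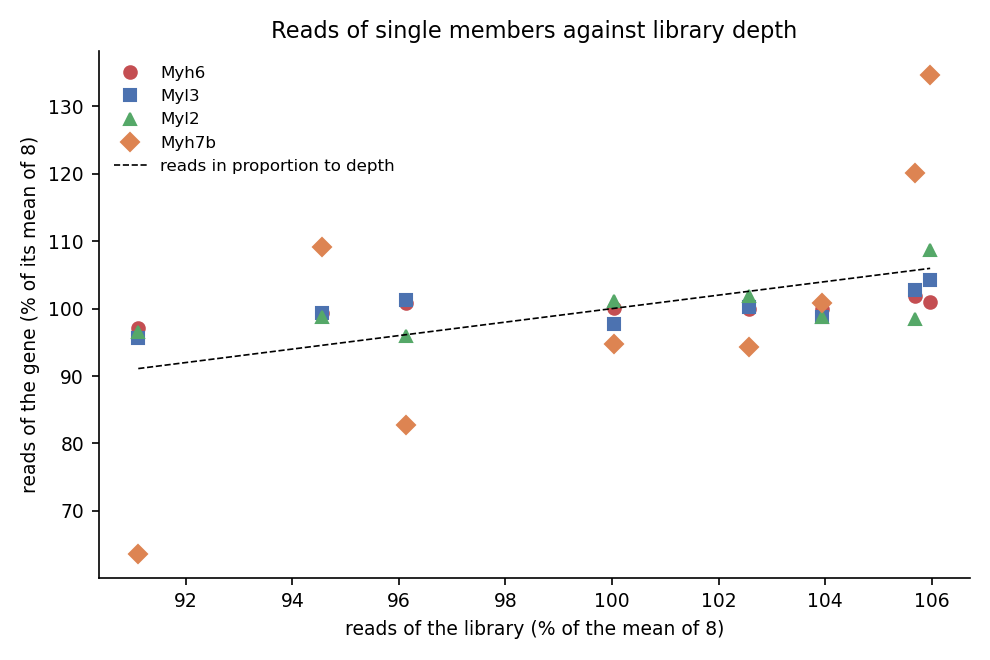
Reads of Myh6, Myl3, Myl2 and Myh7b in each of the 8 libraries, as percent of the gene's mean, against the reads of the library, as percent of the mean library, with a dashed line for reads in proportion to depth. The reads of Myh6 stay between 5063 and 5313 over depths of 2.63e+06 to 3.06e+06 reads, whereas those of Myh7b go from 274 to 580.

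Levels of different genes were compared per length of the first annotated transcript (GENCODE M21). Full lengths were used, although reads from the windows shared by Myh6 and Myh7 had been dropped. The levels of Myh6 and Myh7 per kilobase are therefore understated. Whether Myl3 stays above Myh6, or Myl4 above Myh7 in Mettl3 KO hearts, without the shared windows was not tested. Per kilobase of full length, Myl2 had 1165 ± 44.9 normalized counts in WT hearts, Myl3 878 ± 38.1 and Myh6 831 ± 39.8 (SD, n = 4). On this length they stood in this order in 8 of 8 libraries. Myh7 followed with 145 ± 53.5, Myl4 with 100.4 ± 54.1, Myh7b with 74.5 ± 11.1 and Myl7 with 29.7 ± 20.1. This order did not hold in every WT library, since Myh7 and Myl4 each exceeded Myh7b in 3 of 4. In Mettl3 KO hearts Myl4 reached 296 ± 122 beside 254 ± 87.4 for Myh7, and Myl7 126 ± 68.9 beside 63.3 ± 11.9 for Myh7b. Myl4 exceeded Myh7 in 2 of 4 Mettl3 KO and 0 of 4 WT libraries, and Myl7 exceeded Myh7b in 3 of 4 Mettl3 KO and 0 of 4 WT libraries, so that these neighbours in the order were not apart beyond their spread in Mettl3 KO hearts.

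Abundant members had close to as many reads as bases. Removal of duplicates from single-end data leaves about 1 read per start position and strand, which can cap abundant transcripts. Myl2 had 1.17, Myl3 0.896 and Myh6 0.853 reads per base of their transcripts, beside a median of 0.0322 over 13929 coding genes. The transcript of Myl2 used here is one of several, so its reads per base can exceed 1, and 15 of these genes exceeded 1 on the length of a single transcript. A cap was not tested directly. Myl4 and Myh7 had 0.200 each, Myl7 0.0790 and Myh7b 0.0699. Near such a cap, differences of Myh6, Myl2 and Myl3 between hearts can be understated, the order of their levels is uncertain, and these genes are the denominators of the 3 ratios.

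The other chains of sarcomeric myosin stayed low. None of 8 tested skeletal and embryonic myosin genes was called (limma, with none at an unadjusted p under 0.05 and none with voom), and their summed level was 51 to 110 in WT hearts against 49 to 91 in Mettl3 KO hearts. Myl1, the fast skeletal essential light chain, held the most, with 14, 16, 63 and 12 in WT hearts against 17, 13, 42 and 50 in Mettl3 KO hearts, an order of libraries that differs from that of Myl4. Among smooth muscle and nonmuscle myosins, 1 of 9 was called. Myh14, a nonmuscle myosin heavy chain, had 560, 530, 647 and 522 in WT hearts against 420, 413, 388 and 395 in Mettl3 KO hearts, without overlap (limma log2 fold change -0.48, SE 0.06, adjusted p = 2.31e-05). It was called in 19 of 19 alternatives, the index of atrial markers included (-0.35, limma adjusted p = 0.0215).

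Genes that act on the chains did not pass the test. Of 8 tested kinases and phosphatase subunits of the light chains, none was called (limma, 3 at an unadjusted p under 0.05, none with voom). With the index of atrial markers as covariate, 1 was called. Cardiac light chain kinase Mylk3 had 1311 to 1429 in WT hearts against 1283 to 1453 in Mettl3 KO hearts. Of 12 genes for myosin binding and assembly none was called (limma, 4 at an unadjusted p under 0.05, none with voom). Here too 1 was called with the index of atrial markers. Mybpc3, which binds the cardiac thick filament, was at 2525 to 2881 and 2812 to 3069. Its paralogue Mybphl, an atrial gene, had 11, 8, 1 and 9 in WT hearts against 3, 41, 41 and 71 in Mettl3 KO hearts and did not pass (limma log2 fold change 1.97, SE 0.63, adjusted p = 0.0575). Mybphl was called in 3 of 19 alternatives.

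Of 16 tested regulators of the isoforms, 1 was higher and 1 lower. Pura, a single-strand DNA-binding protein known as a repressor of Myh6, had 576 to 626 in WT hearts against 631 to 687 in Mettl3 KO hearts (limma log2 fold change 0.16, SE 0.05, adjusted p = 0.0411). Smarca4, the chromatin remodeller BRG1, which acts on the Myh6 and Myh7 promoters, had 553 to 620 and 494 to 536 (limma log2 fold change -0.18, SE 0.05, adjusted p = 0.0257). Each lost the call in 8 of 19 alternatives. The thyroid hormone receptor Thra, a main activator of Myh6, had 577 to 617 and 562 to 605 and did not pass (limma adjusted p = 0.844). Med13, a target of miR-208a in the heart, had 1108 to 1228 and 1099 to 1125 (limma adjusted p = 0.667).

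Of 8 chamber regulators, Tbx5 and Irx4 were higher. Tbx5, a T-box factor of atria and conduction tissue, had 259, 224, 277 and 258 in WT hearts against 305, 326, 333 and 365 in Mettl3 KO hearts, without overlap (limma log2 fold change 0.38, SE 0.07, adjusted p = 0.00116), and it lost the call without a trend and with the atrial markers as covariate (0.30, limma adjusted p = 0.135). Irx4, a factor of the ventricle, had 164, 196, 172 and 135 in WT hearts against 219, 192, 205 and 200 in Mettl3 KO hearts (limma log2 fold change 0.30, SE 0.09, adjusted p = 0.0447), and it lost the call in 14 of 19 alternatives.

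Other cell types were checked by their markers. All 6 fibroblast markers were higher in Mettl3 KO hearts, with a summed level of 3276 to 3666 in WT hearts against 4112 to 4772 in Mettl3 KO hearts, and 3 of 4 endothelial markers (Kdr, Tie1 and Cdh5) were lower, with 3253 to 3461 and 2814 to 3095. With the atrial markers as covariate, 6 fibroblast markers and 1 endothelial marker were called, and without a trend 1 and 0. Of 7 cardiomyocyte markers 1 was called, Ryr2, which was lower, and it lost the call in these same fits (limma adjusted p = 0.125 and 0.139). None of 6 smooth muscle markers was called (limma, 3 at an unadjusted p under 0.05, none with voom), but 1 was with the atrial markers as covariate. Of 11 tested skeletal muscle markers, Tnni2 alone was called, at 2 to 7 in WT hearts against 0 to 2 in Mettl3 KO hearts, and it lost the call in 12 of 19 alternatives. Of 5 cardiac stress genes, Nppa, Nppb, Ankrd1 and Xirp2 were higher and Acta1 did not pass (limma adjusted p = 0.199), and Nppa is also among the atrial markers. The part of these cell types in the values of the members was not tested.

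**Figure D5:**
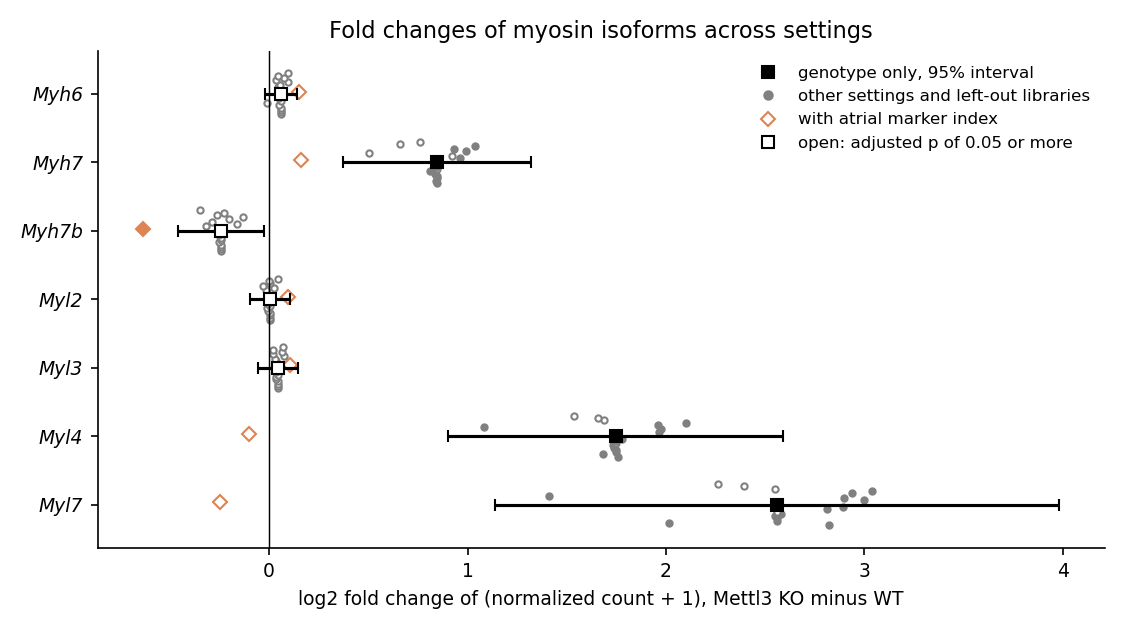
log2 fold changes (Mettl3 KO minus WT, on the log2(normalized count + 1) scale) of the 7 members, with genotype as the only term (black squares with 95% interval), with the index of atrial markers as covariate (orange diamonds) and in the other alternatives and left-out libraries (grey circles). Open symbols did not pass at an adjusted p under 0.05. Myl4 goes from 1.75 to -0.10 and Myl7 from 2.56 to -0.25 with the index, and Myh6, Myl2 and Myl3 stay near 0.

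The promoters of the members were searched for the letters of 4 motifs. These were CATTCC (the MCAT element, bound by TEAD factors), the CArG box (bound by serum response factor), AGGTCA (bound by nuclear receptors) and TATAAA. Both strands were read, from 250 bases before to 50 after each start (RefSeq, GRCm38.p6), and all 7 members matched, with 9 windows. CATTCC was found in Myh6, Myh7, Myl3 and Myl7 and in 14.6% of 32544 windows of all genes, and the CArG box in Myl3 and Myl7 and in 1.64%. AGGTCA was found in Myh7b and Myl2 (16.2% of all windows) and TATAAA in Myh6 and Myl2 (13.6%). For Myl2 both were in the same window, and its other window held neither. In Myh6 TATAAA lay after the start. Stretches are shown for the 2 heavy chain genes of the Myh7/Myh6 ratio and for Myl7, which had the largest fold change, with motifs in capitals and written along the gene's strand.
Myh6 (chr14:54966793-54966828, minus strand): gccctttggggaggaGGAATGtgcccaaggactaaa
Myh7 (chr14:54994807-54994842, minus strand): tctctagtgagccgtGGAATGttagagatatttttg
Myl7 (chr11:5898819-5898867, minus strand): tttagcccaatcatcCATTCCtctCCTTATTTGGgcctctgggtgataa
In Myh6 and in 1 of the 2 windows of Myh7 the element stands in reverse orientation (GGAATG), and the other Myh7 window lacks it, and in Myl7 it is followed by the CArG box without overlap. Myl4, which varied with Myl7 almost in step, held none of these letters in its window. A match describes the sequence and not a bound site.

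GGACT, the most common context of m6A in mammalian RNA, was counted in the transcripts as a further property that the choice of members did not use. Myl4 had 5 such sites (5.69 per kilobase, above 99.9% of 13929 transcripts) and Myl3 had 4 (4.27 per kilobase, above 99.7%), beside a median of 1.07 per kilobase. Myh7 had 7 sites (1.14 per kilobase), Myh6 4, Myh7b 2, Myl2 1 and Myl7 0. The densest members, Myl4 and Myl3, had log2 fold changes of 1.75 and 0.04, and Myl7 without a site had 2.56. Methylation itself was not measured.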

How the data were processed

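Stranded libraries of total heart RNA had been read from a single end over 72 bases. Per the study's methods and the submitters' processing notes, the authors trimmed with Trimmomatic 0.39, aligned with STAR 2.7.11a to mm39, removed duplicates (Picard 3.1.1) and multi-mapping reads, counted exons by strand with featureCounts 2.0.4 and normalized with DESeq2 1.36.0. The deposited values are a score, DESeq2-normalized counts rounded to whole numbers, so no count model was used. Reads were recovered by estimating each library's factor (0.927 to 1.11) from the whole-number steps, tested on 7 simulated libraries, and intervals cover counting error only. Genes with a mean of at least 1 (20313 of 23045) were fitted on log2(value + 1), which understates changes of low genes, with limma 3.58.1 in R 4.3.3 (mean-variance trend, genotype as the only term, two-sided, Benjamini-Hochberg over all genes). Counts of list genes at an unadjusted p under 0.05 are given without the share of all genes tested at that threshold. Ratios were compared by exact permutation on log2 ratios with 1 added to each value, adjusted over 3 ratios. SciPy 1.17.1 was used.

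The members and lists were chosen with earlier results of these data known. Named were all members, list genes that passed or that check a cell type, the 5 genes most like Myh7 and Myl7 (1 of each 5 is not reported here), Mettl3 and Esr1. Other list genes (Mylk3, Mybpc3, Mybphl, Thra, Med13, Myl1, Acta1 and the antisense RNAs) were named after their values were seen. Alternatives were other pseudocounts, filters and scalings, voom, a fit without trend, replicate block, atrial index and each library left out. Litter, time of harvest and the part of the heart taken are not given in the sources used here, and p-values measure the spread between these libraries. Transcripts came from GENCODE M21 and sequences from RefSeq, both on GRCm38, and gene coordinates from the deposited table.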

Additional observations from a re-analysis of the deposited data

Results flagged for a closer look

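WT replicate 3 stood apart from the other WT libraries in 3 of 20 groups of 4 values that were searched over members and ratios. For Myl4 in WT its gap to the next library made up 0.959 of the range of the group, for the Myh7/Myh6 ratio in WT 0.907 and for the Myl4/Myl3 ratio in WT 0.875, each above Dixon's 95% critical value. Chance marks about 1 in 20 groups, which is 1 here, and the 3 marked values come from the same library and are not independent. Mettl3 (118 normalized counts) and Esr1 (13) were at WT levels in this library.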

How the results depend on the processing

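The number of called genes stayed within 1.5 times 1607 in 16 of 19 alternatives and was 321 without a trend, 919 with the atrial marker index and 1005 to 1593 with a library left out, lowest without Mettl3 KO replicate 3. The number of called members was 0 without a trend, 1 with the atrial marker index (Myh7b) and 0 to 3 with a library left out (0 without Mettl3 KO replicate 3 or 4, 1 without replicate 2). Myh7 also lost the call with the replicate block (adjusted p = 0.0722) and without WT replicate 2 (adjusted p = 0.0518). Same-numbered libraries did not deviate together (r from -0.02 to 0.07). No pairing by number was seen in the values, but whether the numbers pair samples is not known. With the replicate block 1346 genes and 3 members, Myl4, Myl7 and Myh7b (adjusted p = 0.0400), were called, and the log2 differences of the ratios remained 0.78, 2.56 and 1.70 (two-sided exact sign-flip adjusted p = 0.250 for each). Signs turned for Myl4 (-0.10) and Myl7 (-0.25) with the atrial marker index, for Myh6 with quantile normalization (-0.012), and for Myl2 with equal totals (-0.0061), quantile normalization (-0.0087), voom on values (-0.0055) or on reads (-0.0081) and in 3 of 8 fits with a library left out (-0.030 to 0.044 over all 8). The causes were not tested. With a library left out, the ratio differences ran from 0.45 to 0.96 (Myh7/Myh6), 1.43 to 3.07 (Myl7/Myl2) and 1.06 to 2.08 (Myl4/Myl3), lowest without WT replicate 3 each time. None passed, but with a library left out the exact test cannot go below p = 0.0571 and with the block not below 0.125, so these fits had no power to pass. With another pseudocount Myl7/Myl2 was 2.01 or 2.82. Depth limits Myl7 in WT hearts, at 0 to 26 normalized counts.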
